A study of Mus musculus with 6 samples.

Results

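Cadherins and protocadherins are adhesion proteins of the neuronal surface. The genes described here are those in the deposited expression table whose symbol starts with Pcdh, or with Cdh and a digit, leaving out Cdh5, an endothelial cadherin. The rule uses names only and found 67 of the 13170 genes in the table. Of these, 40 are clustered protocadherins (3 alpha, 17 beta and 20 gamma genes), 11 are other protocadherins (10 of the delta group, and Pcdh15) and 16 are cadherins (4 of type I, 11 of type II, and Cdh13). Other annotated genes that fit the rule, such as Cdh3 and Pcdh12, are not listed in the table and so were not analysed here.

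RNA was sequenced from brain tissue of adult male mice labelled C57 that had been placed in a group with high or a group with low sexual motivation, with 3 libraries in each. No drug, transgene or deletion is named for either group, so the groups share strain and sex and differ by the motivation label. The series title concerns NRG1-ErbB4 signalling in the medial amygdala, the design text writes MeA, the extraction protocol writes PrL, and brain is all that the tissue label gives. The sources used here do not give how motivation was scored, the age in weeks, or whether animals were pooled, so p-values cover the spread among these 6 libraries only, and that may be technical.

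Classical cadherins hold cells together by calcium-dependent binding outside the cell and by catenins and actin inside it. Delta protocadherins are single genes that guide axons and shape synapses, and several bind the WAVE complex, which nucleates actin. Clustered protocadherins lie in tandem arrays, named alpha, beta and gamma, from which each neuron chooses a few promoters, and the resulting isoforms serve self-recognition of neurites. Alpha and gamma genes each join a variable first exon to constant exons shared by their array, while beta genes are single exons.

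Values are FPKM, fragments counted per unit of transcript length and of sequencing depth, so that levels can be compared between genes. The table gives no counts. Read from the steps between values of weakly expressed genes, the libraries held about 13600000 to 19000000 counted fragments, an estimate that rests on 5 to 15 genes a library. Depth was therefore about 118 fragments for Cdh1 in high library 1 and about 1 in low library 3. Libraries differed in their content beside the groups. Choroid plexus markers summed to 1344 and 4182 FPKM in low libraries 1 and 3, against 83.8 in low library 2 and 43.7 to 113 in the high group. Ependymal markers summed to 11.9 to 14.7 FPKM in the high group and 21.8 to 43.7 in the low group, and oligodendrocyte markers to 351 to 422 and 322 to 358. Pan-neuronal markers summed to 1006 to 1138 FPKM in the high group and 987 to 1042 in the low group. Sums of astrocyte, microglia, oligodendrocyte precursor, and endothelial and mural markers overlapped between the groups. Markers of cortical and hippocampal excitatory neurons summed to 273, 350 and 206 FPKM in high libraries 1 to 3. In low libraries 1 to 3 they summed to 279, 248.5 and 321 FPKM, so these sums overlapped too. None of the listed markers was at 0. In bulk tissue, fewer cells of a type and less RNA per cell cannot be told apart. Deviation from the gene's mean followed transcript GC content most in low library 2, with a Spearman correlation of −0.50 across genes, and with the opposite sign in high library 2, at 0.45, while low library 1 was at −0.24. Genes of 1 library are not independent. The part of these differences in the results below was not tested.

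The most abundant members were delta protocadherins and cadherins. Pcdh1 led with a mean of 43.2 FPKM over the 6 libraries, followed by Cdh22 at 22.1, Pcdh8 at 20.0, Cdh2 at 14.4 and Cdh4 at 13.5. Among clustered genes only Pcdhgc5, a C-type gamma isoform, passed 10 FPKM, with a mean of 12.1. Pcdhgc3 followed at 5.39, Pcdhac2 at 3.90 and Pcdhgc4 at 3.82. The listed C-type isoforms, which sit at the end of the alpha and gamma arrays, held the highest levels among the listed genes of their arrays. Only 3 of 13 annotated alpha genes are listed, and Pcdhac1, another C-type isoform, is not among them. The beta genes ranged from 0.511 (Pcdhb19) to 3.22 FPKM (Pcdhb9). Low levels are a limit of these data: 50 of the 67 members had a mean of at least 1 FPKM and entered the test, 27 of them clustered, 9 other protocadherins and 14 cadherins. The 17 left out were 13 clustered genes, Pcdh11x, Pcdh15, Cdh1 and Cdh6.

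**Figure D1:**
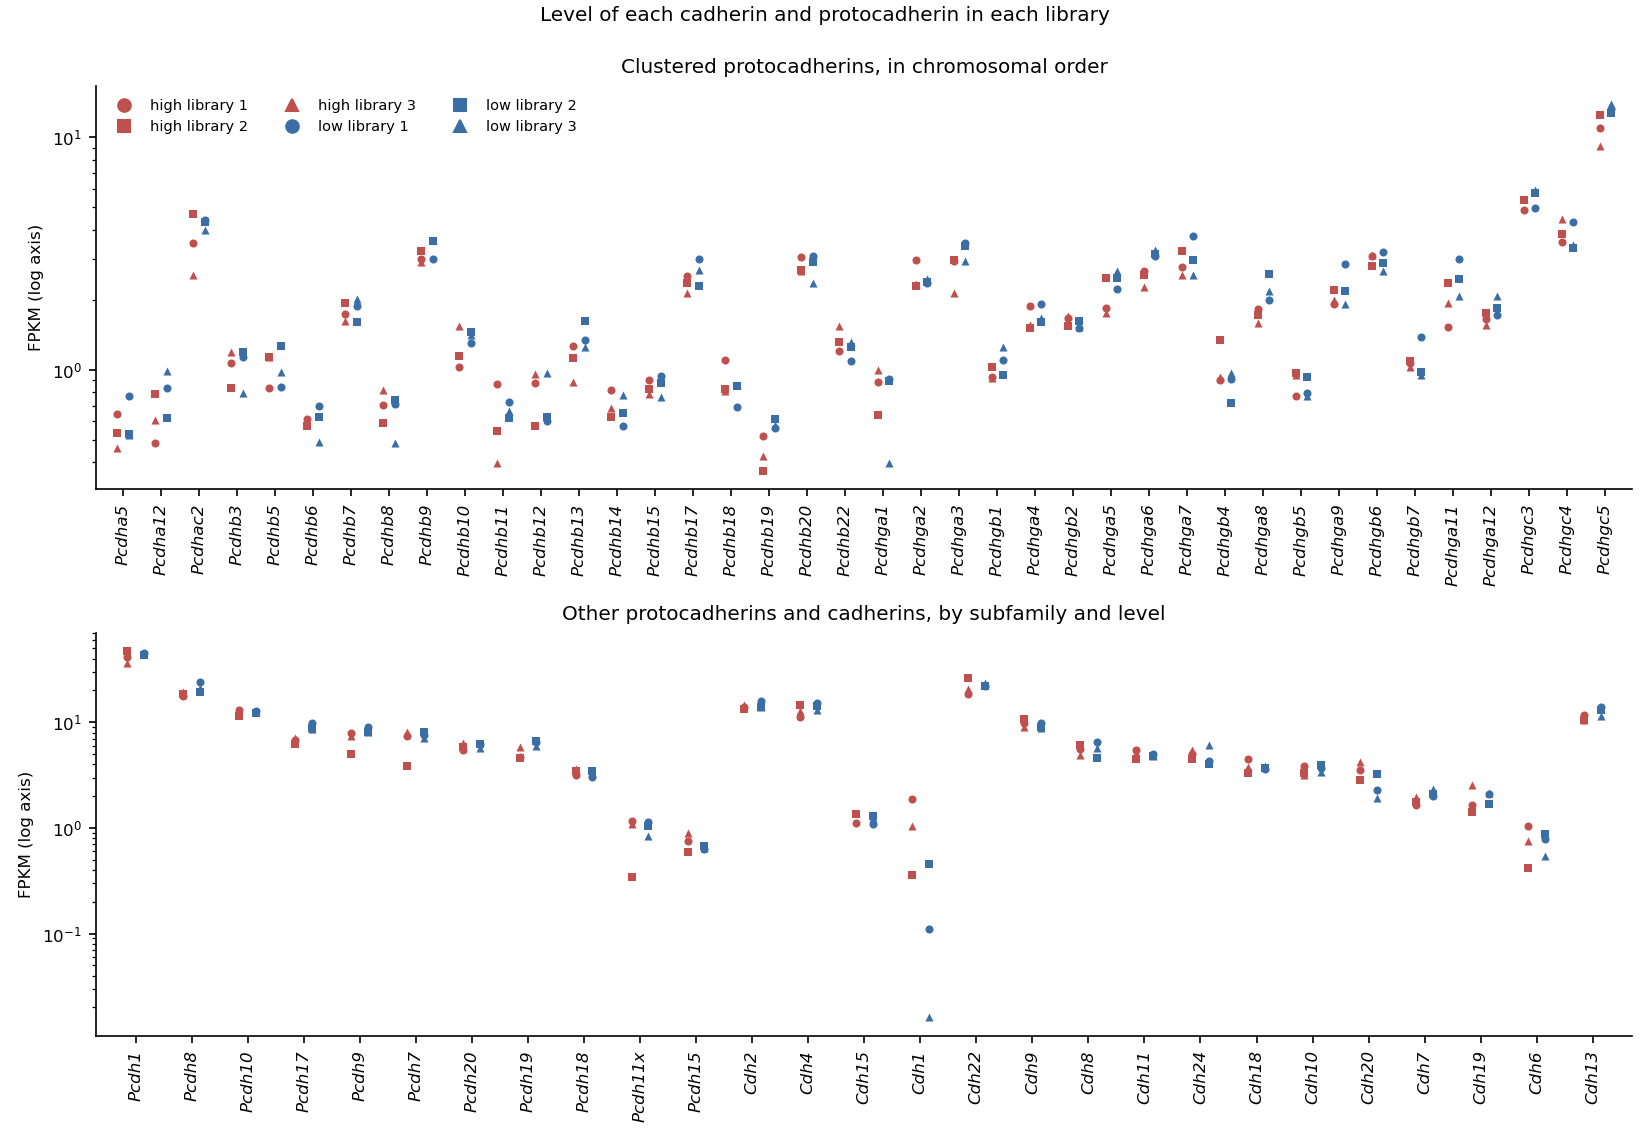
FPKM on a log axis for each member (x axis) in each of the 6 libraries, high in red and low in blue, with the symbol giving the library number. Pcdh1 and Cdh22 sit highest, the clustered genes mostly lie between 0.5 and 5 FPKM apart from Pcdhgc5, and Cdh1 spans the widest range, from 0.0161 to 1.87 FPKM.

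No member differed between the groups at an adjusted p of 0.05 (limma, Benjamini-Hochberg over 12026 genes), nor did any other gene, and the smallest adjusted p of a member was 0.471. Before adjustment, 7 of the 50 tested members had a p under 0.05, 6 lower and 1 higher in the high group, against 8.39% of all tested genes (4.27% lower and 4.12% higher). Groups were separate, meaning that all 3 high values lay on one side of all 3 low values, in 9 of the 67 members, or 13.4%. All 9 were lower in the high group. Among all listed genes, 7.59% were separate with the high group lower and 7.17% with the high group higher. By class, the 9 were 4 of 40 clustered protocadherins, 4 of 11 other protocadherins and 1 of 16 cadherins. Of the 50 tested members, 36 (72.0%) had a log2 difference below 0, compared with 49.9% of all tested genes. The exact 2-sided permutation test gives p = 0.1 for each separate gene, the smallest that 3 against 3 allows. The ependymal marker sum given above was also separate with the high group lower, and its part in these counts was not tested.

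**Figure D2:**
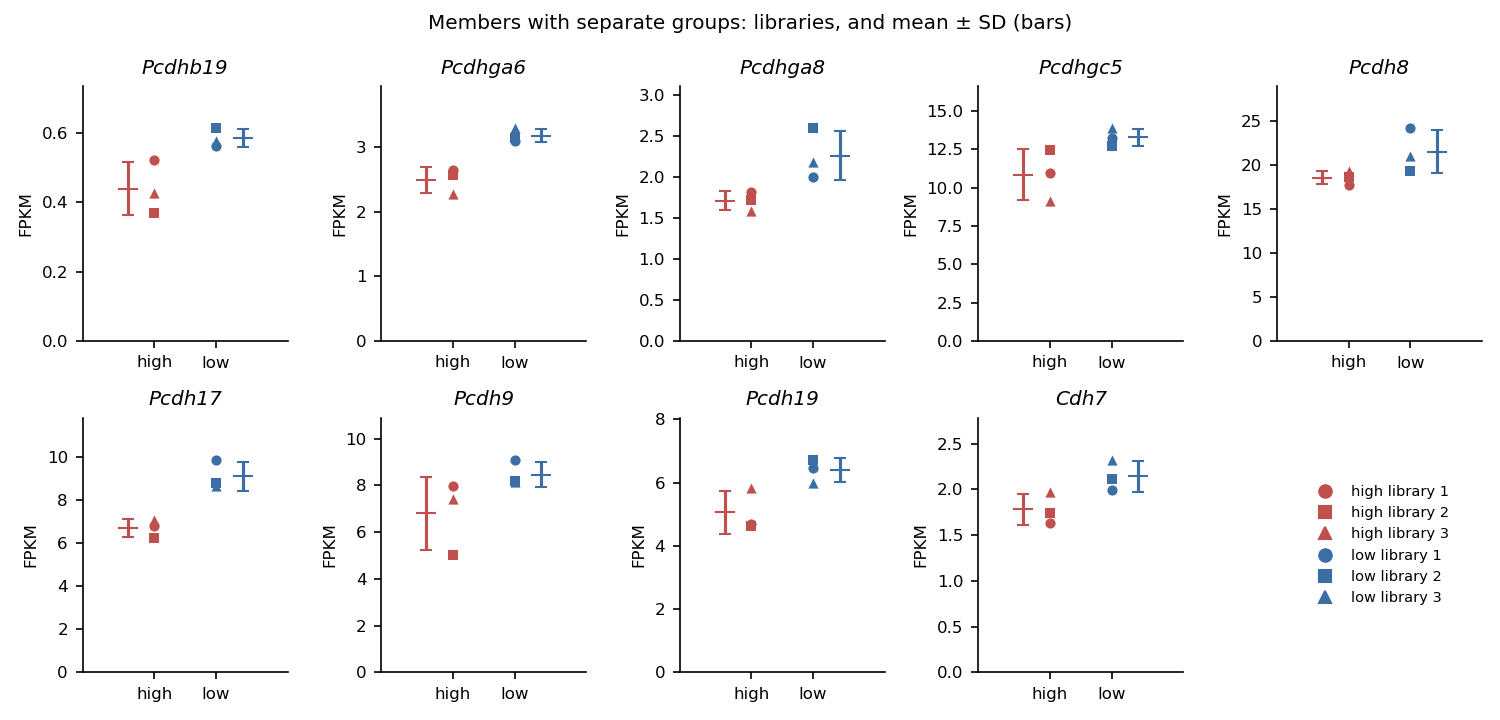
FPKM from 0 on the y axis of each of the 9 members with separate groups, with 1 point per library and a bar for the mean ± SD (n = 3) of each group. All high libraries lie below all low libraries in each panel, with a wide gap in Pcdh17 and Pcdhga6 and a narrow one in Pcdh8, Pcdhgc5 and Cdh7.

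Delta protocadherins were lower in the high group in 8 of 9 tested genes, with a median log2 difference of −0.20 against 0.00018 for all tested genes. A log2 difference is the mean of log2(FPKM + 1) in the high libraries minus that in the low libraries, and is smaller than the true log2 ratio in weakly expressed genes. Summed over the 10 listed genes, delta protocadherins stood at 109, 107 and 107 FPKM in high libraries 1 to 3 and at 126, 118 and 119 FPKM in low libraries 1 to 3. The high libraries were all below the low libraries, with means of 107.8 ± 1.35 and 120.7 ± 4.44 FPKM (SD, n = 3 each) and a ratio of 0.893. The median log2 difference moved to −0.11 without low library 1, to −0.12 without high library 2 and to −0.07 without low libraries 1 and 3, which were rich in choroid plexus markers.

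Pcdh17, which recruits actin regulators in growing amygdala axons and organises synapses in the basal ganglia, had the smallest p of all members. It lies at 14:84443563-84539002 in GRCm38. Its values were 6.79, 6.25 and 7.08 FPKM in the high libraries, against 9.88, 8.79 and 8.68 FPKM in the low libraries. The groups did not overlap, and low library 1 was highest. The means were 6.70 ± 0.422 and 9.12 ± 0.660 FPKM (SD, n = 3 each), a ratio of 0.735, and limma gave a log2 difference of −0.39 (SE 0.0773, adjusted p 0.471). Over the alternatives run, the difference stayed between −0.44 and −0.34. The authors' deposited table gives Pcdh17 a log2 fold change of −0.443 with an unadjusted p of 0.00596.

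Pcdh19, whose human form underlies an X-linked epilepsy, lies at X:133582860-133688987. The high libraries gave 4.70, 4.64 and 5.83 FPKM and the low libraries 6.47, 6.71 and 5.98 FPKM. High library 3 came close to low library 3, and the other libraries stood further apart. Its log2 difference was −0.29 (SE 0.0940, adjusted p 0.557 by limma), with means of 5.05 ± 0.672 and 6.39 ± 0.376 FPKM (SD, n = 3 each).

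Pcdh8, induced by activity and known for taking N-cadherin off synapses, was the second most abundant delta gene. It was measured at 17.8, 18.6 and 19.3 FPKM in the high libraries and at 24.2, 19.3 and 21.0 FPKM in the low libraries. The groups were separate by a narrow gap between high library 3 and low library 2, and low library 1 was highest. The log2 difference of −0.20 (SE 0.0860, adjusted p 0.596 by limma) moved to −0.11 without low library 1 and to −0.06 without low libraries 1 and 3.

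Pcdh9, a neuronal delta protocadherin, stood at 7.99, 5.03 and 7.41 FPKM in the high libraries and at 9.09, 8.17 and 8.15 FPKM in the low libraries. High library 2 lay far below the rest. The log2 difference was −0.30 (SE 0.143, adjusted p 0.605 by limma) and moved to −0.12 without that library. Pcdh7 also had its lowest value there, at 3.84 FPKM against 7.34 and 8.17 in the other high libraries, with 7.58, 8.13 and 7.12 in the low libraries. Its log2 difference of −0.26 moved to 0.025 when high library 2 was left out. In Pcdh11x, which is X-linked, high library 2 held 0.340 FPKM and the other libraries 0.843 to 1.15. The drop was not common to delta genes, as Pcdh1 had its highest value in high library 2, at 47.1 FPKM. Transcript GC content was 42.6% in Pcdh9, 45.8% in Pcdh7 and 36.3% in Pcdh11x, against 60.7% in Pcdh1. In Pcdh20, at 42.0%, high library 2 lay between the other high libraries. The part of GC content in the drop was not tested. Pcdh7, Pcdh11x and Pcdh20 were named after their values were seen.

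The remaining delta genes overlapped between the groups. Pcdh1 was at 41.8, 47.1 and 36.4 FPKM in the high and 45.5, 43.4 and 45.1 in the low libraries. Its log2 difference of −0.10 moved to −0.19 without high library 2 and to −0.010 without high library 3. Pcdh10, which guides striatal and thalamic axons, was at 13.1, 11.5 and 12.3 FPKM against 12.7, 12.2 and 12.9, a log2 difference of −0.03. Pcdh18 was the one tested delta gene with a positive difference, 0.04, at 3.13, 3.43 and 3.64 against 3.05, 3.49 and 3.33 FPKM. Pcdh15, which forms the tip links of hair cells and belongs to none of these groups, was at 0.755, 0.595 and 0.904 against 0.629, 0.667 and 0.643 FPKM.

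Pcdh8, Pcdh17 and Pcdh9 are on chromosome 14, at 79766775-79771312, 84443563-84539002 and 93013410-93890679. Pcdh20, at 14:88464743-88471396 between Pcdh17 and Pcdh9, overlapped between the groups, with 5.47, 5.87 and 6.35 FPKM in the high and 6.17, 6.23 and 5.65 FPKM in the low libraries.

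The promoters of the 4 delta genes with separate groups are printed to show what lies upstream of genes that were low in the same 3 libraries. Each is the 250 bases before the most upstream RefSeq start (GRCm38.p6), 5′ to 3′ on the strand of the gene, and capitals mark the CCAAT box, read on either strand as CCAAT or ATTGG.
Pcdh17, 14:84443313-84443562, plus strand: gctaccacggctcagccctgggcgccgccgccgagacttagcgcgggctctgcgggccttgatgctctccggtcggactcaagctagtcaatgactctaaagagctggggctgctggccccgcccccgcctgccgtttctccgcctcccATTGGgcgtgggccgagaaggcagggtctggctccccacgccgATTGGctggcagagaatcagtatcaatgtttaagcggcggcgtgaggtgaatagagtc
Pcdh19, X:133688994-133689243, minus strand: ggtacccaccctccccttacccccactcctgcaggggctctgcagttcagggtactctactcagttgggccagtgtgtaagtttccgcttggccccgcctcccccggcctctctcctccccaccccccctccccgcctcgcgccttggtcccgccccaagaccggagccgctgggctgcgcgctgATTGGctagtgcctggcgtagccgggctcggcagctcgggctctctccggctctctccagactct
Pcdh8, 14:79771313-79771562, minus strand: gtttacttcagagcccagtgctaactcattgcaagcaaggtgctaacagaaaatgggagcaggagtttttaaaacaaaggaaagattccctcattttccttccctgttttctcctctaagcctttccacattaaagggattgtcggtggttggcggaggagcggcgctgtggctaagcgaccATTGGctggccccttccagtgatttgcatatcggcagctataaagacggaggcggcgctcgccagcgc
Pcdh9, 14:93890680-93890929, minus strand: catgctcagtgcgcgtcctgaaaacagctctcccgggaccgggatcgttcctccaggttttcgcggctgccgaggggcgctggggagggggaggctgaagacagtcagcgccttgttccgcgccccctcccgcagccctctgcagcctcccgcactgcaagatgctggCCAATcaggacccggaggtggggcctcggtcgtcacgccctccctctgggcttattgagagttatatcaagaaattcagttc

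All 4 windows hold a CCAAT box, and Pcdh17 holds 2. The same letters occur in 33.8% of 32851 RefSeq promoter windows of this length and in 13 of the 19 members with a window. These were 8 of the 14 members whose groups overlapped and all 5 with separate groups. As the motif was picked after the printed windows were seen, these shares cannot be compared. The window of Cdh7, separate but not printed, overlaps an annotated exon, as do some other windows counted. The GC box GGGCGG (either strand) was found in 32.7% of all windows, in Pcdh17 and Pcdh19 here, and in 7 of the 14 members whose groups overlapped. TATAA (either strand) was found in 22.8% of all windows, here in Pcdh8 and Pcdh9, and in 4 of the 14 members whose groups overlapped. GC content was 64.8%, 69.2%, 51.2% and 63.6% in the order printed, against a median of 52.4% over all windows. In the 14 members whose groups overlapped it ranged from 36.8% (Cdh10) to 77.6% (Cdh22). The 3 motifs were chosen after the sequences were seen, none is contained in another, and a match is a description.

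Clustered protocadherins were lower in the high group in 20 of 27 tested genes, with a median log2 difference of −0.10. The median was −0.05 over all 40 listed genes, and −0.06 without low library 1. Summed over the 40 genes, the high libraries held 77.4, 80.9 and 73.2 FPKM and the low libraries 87.0, 84.1 and 83.2 FPKM. The sums did not overlap, with means of 77.2 ± 3.88 and 84.8 ± 1.99 FPKM (SD, n = 3 each) and a ratio of 0.910. The array runs over chromosome 18 in the order alpha, beta, gamma. In the GENCODE vM21 annotation of GRCm38, the listed gamma genes share 27.8% to 66.8% of their exonic bases with other genes of the array and the alpha genes 48.6% to 54.9%. The sources used here do not give how the authors assigned fragments of the shared exons, so single alpha and gamma values are uncertain. The beta genes share none, except Pcdhb22 with 6.88%.

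**Figure D3:**
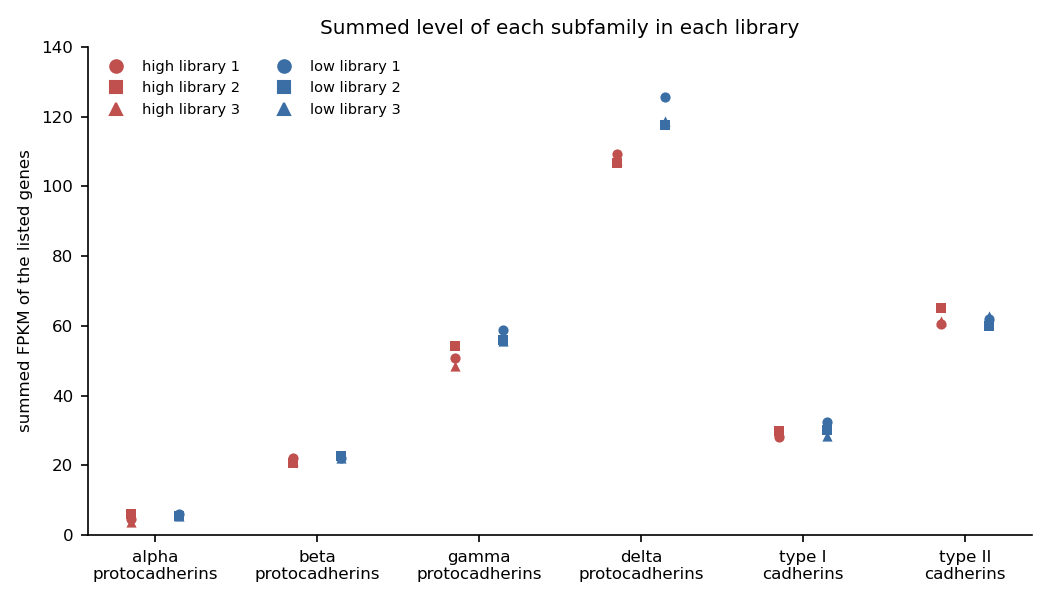
Summed FPKM (y axis, from 0) of the listed genes of each subfamily in each library, high in red and low in blue. The delta and gamma sums do not overlap between the groups, and the alpha, beta, type I and type II sums do.

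Gamma genes held most of the difference between the clustered sums. Their sums were 50.6, 54.2 and 48.4 FPKM in the high libraries, against 58.8, 55.9 and 55.6 FPKM in the low libraries, a ratio of 0.900 without overlap. The median log2 difference was −0.10, with 13 of 17 tested genes lower. Beta genes summed to 22.2, 20.7 and 21.1 FPKM in the high and 22.2, 22.8 and 22.0 FPKM in the low libraries. Their median was −0.03, with 6 of 9 lower, and −0.0007 once the GC and length trend was taken out. Alpha sums were 4.63, 5.99 and 3.63 FPKM against 5.99, 5.46 and 5.49 FPKM and overlapped. The difference between arrays was not tested.

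Pcdhgc5, the most abundant clustered gene, was at 10.9, 12.5 and 9.16 FPKM in the high libraries and at 13.3, 12.7 and 13.9 FPKM in the low libraries. High library 2 approached low library 2, and high library 3 was lowest. The log2 difference was −0.28 (SE 0.103, adjusted p 0.582 by limma), with means of 10.9 ± 1.66 and 13.3 ± 0.575 FPKM (SD, n = 3 each). It moved to −0.17 without high library 3. The groups overlapped in the other C-type gamma genes. Pcdhgc4, known for the survival of interneurons, was at 3.54, 3.85 and 4.47 against 4.32, 3.35 and 3.43 FPKM, and Pcdhgc3, which acts in dendrite arborisation, at 4.86, 5.37 and 5.42 against 4.98, 5.78 and 5.93 FPKM.

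Pcdhga6 was the gamma gene with the smallest p. It was at 2.65, 2.57 and 2.27 FPKM in the high libraries and at 3.10, 3.15 and 3.29 FPKM in the low libraries. The low libraries lay close together, above all high libraries. Its log2 difference was −0.26 (SE 0.0812, adjusted p 0.553 by limma), with means of 2.50 ± 0.200 and 3.18 ± 0.0994 FPKM (SD, n = 3 each). Pcdhga8 was at 1.82, 1.72 and 1.59 FPKM against 2.01, 2.60 and 2.19 FPKM, with a log2 difference of −0.26 (SE 0.0988, adjusted p 0.582 by limma). The groups were separate here too, with low library 2 highest, and the difference was −0.41 without low libraries 1 and 3. The gene with the largest positive gamma difference by p, Pcdhgb4, was at 0.904, 1.34 and 0.936 FPKM against 0.917, 0.723 and 0.973 FPKM, with high library 2 highest and low library 2 lowest.

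A division of the gamma genes by type was made after their values were seen. The 11 gamma-A genes summed to 22.9, 23.8 and 20.7 FPKM in the high libraries and to 27.4, 26.0 and 24.3 FPKM in the low libraries, with 9 of 10 tested genes lower and a median log2 difference of −0.16. The 6 gamma-B genes, interleaved with them, summed to 8.43, 8.78 and 8.66 FPKM against 8.90, 8.07 and 8.16 FPKM, with 2 of 4 tested genes lower. Gamma-A sums were separate and gamma-B sums overlapped, and the difference between the types was not tested.

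**Figure D4:**
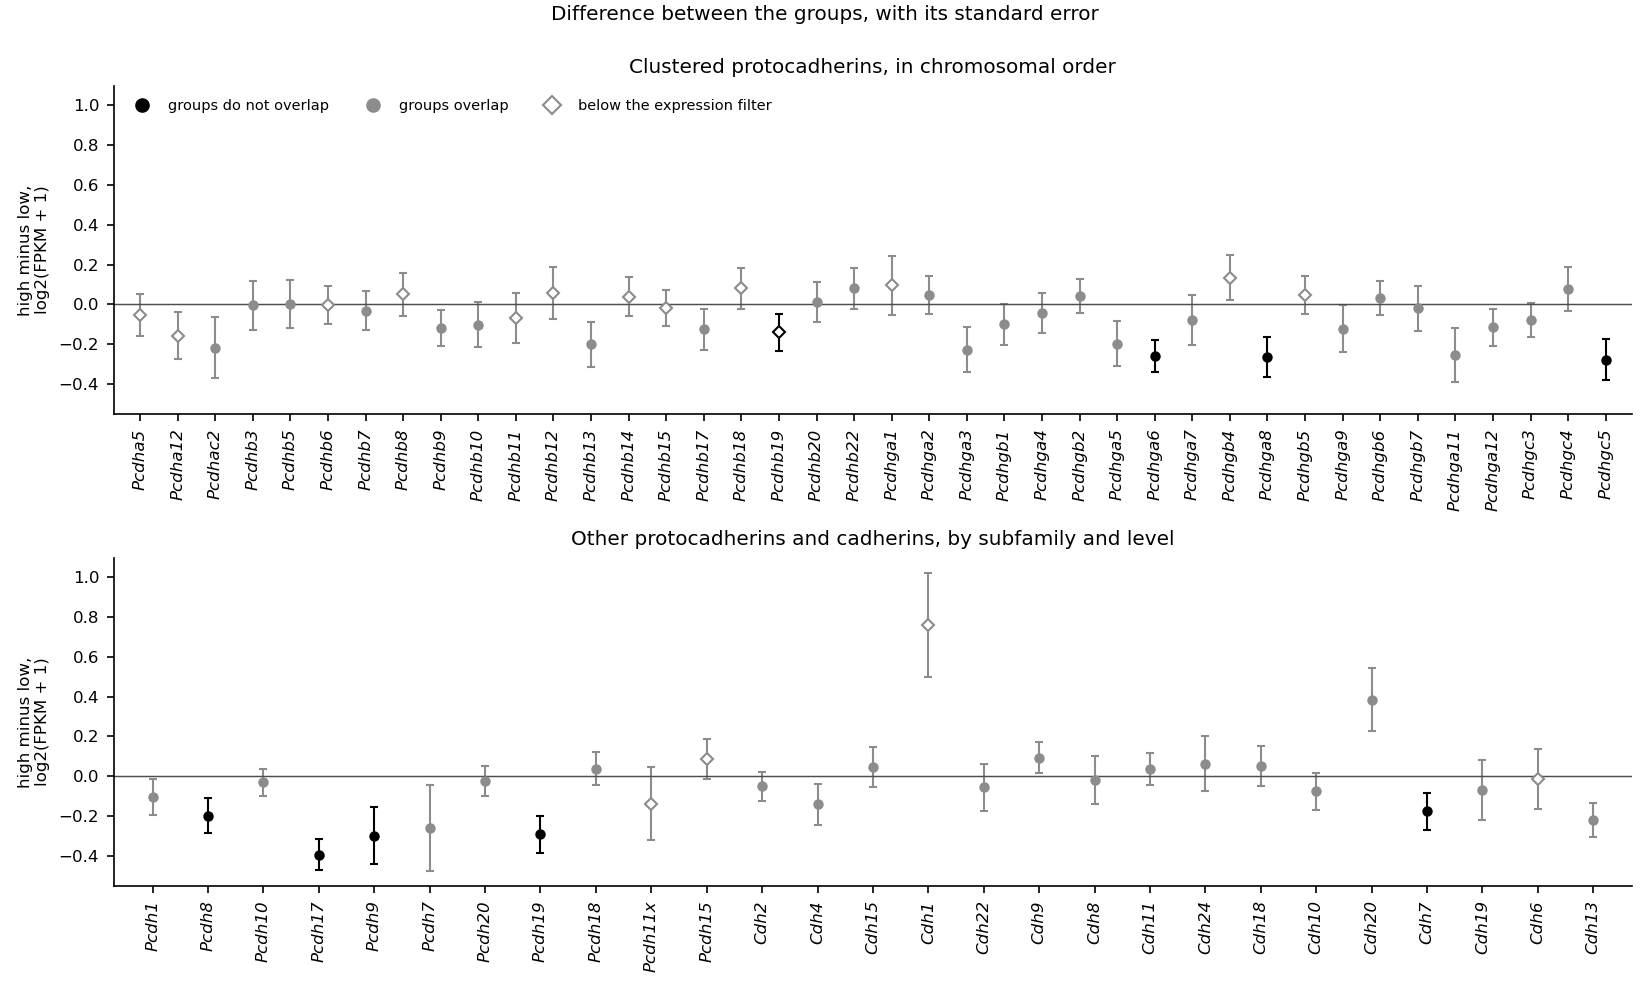
High minus low difference on the log2(FPKM + 1) scale (y axis) for each member, with bars of 1 standard error from limma; black marks separate groups and open diamonds mark genes below the expression filter, taken from the fit to all genes. Black points lie between −0.39 and −0.14, and Cdh1 and Cdh20 are the highest at 0.76 and 0.38.

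Among beta genes, Pcdhb19 was separate, at 0.520, 0.369 and 0.426 FPKM in the high libraries, against 0.562, 0.613 and 0.576 FPKM in the low libraries. It was below the filter, and its log2 difference in the fit to all genes was −0.14 (SE 0.0931, adjusted p 0.687 by limma), or −0.03 once a trend on transcript GC content and length was taken out, and −0.35 with a pseudocount of 0.1. The beta gene with the highest level, Pcdhb9, overlapped at 3.01, 3.24 and 2.90 against 2.99, 3.58 and 3.63 FPKM. Pcdhb20 was at 3.05, 2.69 and 2.66 against 3.08, 2.90 and 2.35 FPKM, and Pcdhb17 at 2.53, 2.37 and 2.14 against 2.99, 2.29 and 2.70 FPKM. In Pcdhb13 high library 1 passed low library 3, at 1.27, 1.12 and 0.890 against 1.34, 1.62 and 1.25 FPKM. Its log2 difference was −0.20, and −0.26 to −0.13 leaving out 1 library at a time. Pcdhb22 was at 1.21, 1.31 and 1.54 against 1.09, 1.26 and 1.32 FPKM, with a log2 difference of 0.08, and 0.025 to 0.13 leaving out 1 library.

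Of the alpha genes, Pcdhac2, needed for the even spread of serotonergic axons, was at 3.50, 4.66 and 2.56 FPKM in the high and 4.39, 4.31 and 3.98 FPKM in the low libraries. High library 2 was above all low libraries while the other high libraries were below them. The log2 difference of −0.22 moved to −0.05 without high library 3 and to −0.38 without high library 2. Pcdha12 was at 0.486, 0.789 and 0.607 against 0.834, 0.620 and 0.992 FPKM, and Pcdha5 at 0.646, 0.536 and 0.460 against 0.771, 0.528 and 0.522 FPKM.

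Cadherins showed no common direction, with 8 of 14 tested genes lower and a median log2 difference of −0.03, which turned to 0.018 once the GC and length trend was taken out. Their sums were 100.4, 105 and 102 FPKM in the high libraries, against 108, 103 and 103 FPKM in the low libraries, a ratio of 0.980 with overlap. Cdh2, the N-cadherin of synapses, was at 14.1, 13.5 and 14.6 against 15.8, 14.0 and 14.1 FPKM (log2 difference −0.05). Cdh4, the R-cadherin, was at 11.1, 14.6 and 12.7 against 15.3, 14.3 and 13.0 FPKM. Its log2 difference of −0.14 moved to −0.23 without high library 2 and to −0.051 without high library 1. Both overlapped, as did Cdh15, first known from muscle, at 1.12, 1.36 and 1.37 against 1.08, 1.31 and 1.24 FPKM.

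Cdh1, the E-cadherin of epithelia and of the leptomeninges, had the largest difference of any member. It was at 1.87, 0.357 and 1.05 FPKM in the high libraries and at 0.112, 0.453 and 0.0161 FPKM in the low libraries. High libraries 1 and 3 were above all others, while high library 2 lay below low library 2. The means were 1.09 ± 0.757 and 0.194 ± 0.230 FPKM (SD, n = 3 each), and the fit to all genes gave a log2 difference of 0.76 (SE 0.262, adjusted p 0.575 by limma), which moved to 0.50 without high library 1, to 1.04 without high library 2 and to 0.46 without low libraries 1 and 3. With a pseudocount of 0.5 it was 1.13, and with 0.1 it was 2.08. The order of the 6 libraries by Cdh1 was that of 4 of the 10 listed genes of meninges and fibroblasts. These were Slc6a13, Slc22a6, Aldh1a2 and Foxc1, picked out for that order. The other listed genes did not have it, with Spearman correlations with Cdh1 from 0.26 (Slc13a4) to 0.89 (Col1a2) over the 6 libraries. The 10 markers summed to 69.4, 13.1 and 33.1 FPKM in the high and 12.4, 23.5 and 21.4 FPKM in the low libraries. Their part in the Cdh1 value was not tested.

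**Figure D5:**
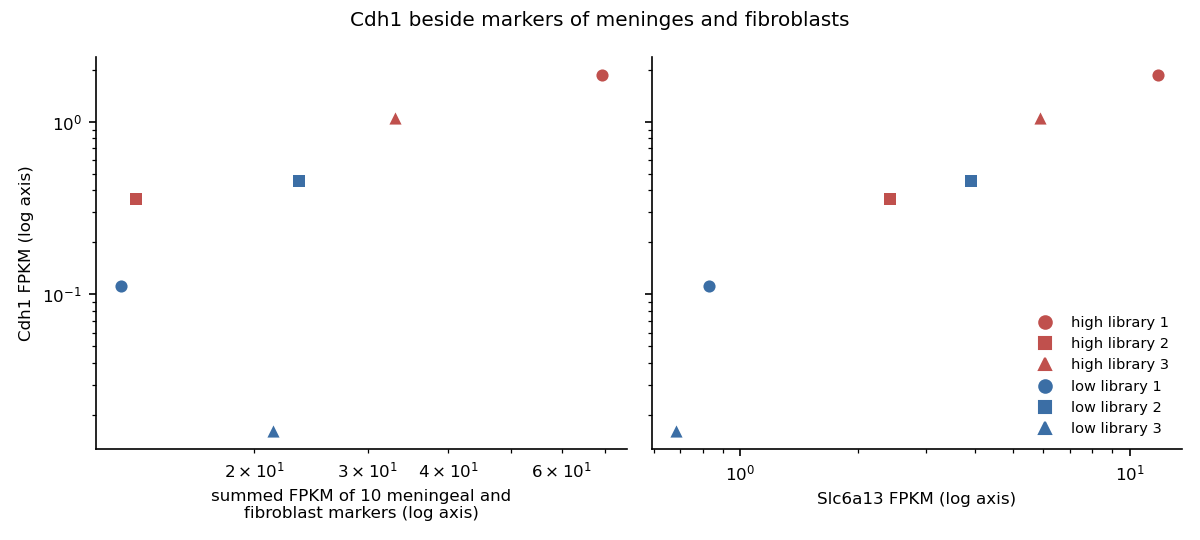
FPKM of Cdh1 (y axis, log) against the summed FPKM of 10 meningeal and fibroblast markers (left) and against Slc6a13 FPKM (right, log axes), with 1 point per library. The libraries keep the same order by Cdh1 and by Slc6a13, a marker picked out for that order. Low library 3 has the lowest Cdh1, 0.0161 FPKM, at a marker sum of 21.4 FPKM.

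Among type II cadherins, whose combinations mark brain nuclei and cortical layers, 5 of 10 tested genes were lower and 5 higher. Cdh22 was the most abundant at 18.5, 26.4 and 20.5 against 22.0, 22.1 and 23.3 FPKM. Cdh9, which acts at hippocampal mossy fibre synapses, was at 9.82, 10.7 and 9.04 against 9.75, 8.95 and 8.76 FPKM, and Cdh8 at 5.52, 6.04 and 4.85 against 6.48, 4.61 and 5.67 FPKM. These 3 overlapped.

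Cdh20 and Cdh7, both on chromosome 1, had differences of opposite sign. Cdh20 was at 3.55, 2.85 and 4.16 FPKM in the high libraries and at 2.29, 3.23 and 1.92 FPKM in the low libraries. High libraries 1 and 3 passed every low library, and high library 2 did not. Its log2 difference of 0.38 (SE 0.158, adjusted p 0.583 by limma) moved to 0.086 without low libraries 1 and 3. Cdh7, at 1:109982431-110140157, was at 1.63, 1.74 and 1.97 FPKM against 1.99, 2.11 and 2.32 FPKM, separate by a narrow gap. Its log2 difference was −0.18 (SE 0.0921, adjusted p 0.608 by limma) and moved to −0.07 once the GC and length trend was taken out.

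Cdh13, anchored to the membrane by a lipid and without a cytoplasmic tail, was at 11.7, 10.4 and 10.5 FPKM in the high and 14.0, 13.0 and 11.5 FPKM in the low libraries. High library 1 passed low library 3, and the other libraries kept apart. The means were 10.9 ± 0.730 and 12.8 ± 1.27 FPKM (SD, n = 3 each), with a log2 difference of −0.22 (SE 0.0862, adjusted p 0.582 by limma).

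Genes that work with these proteins were counted by list, and none of them differed at an adjusted p of 0.05 by limma. Cytoplasmic partners of protocadherins, among them the WAVE complex and its activators, had 12 of 14 tested genes lower, a median log2 difference of −0.14, and 3 lower at an unadjusted p under 0.05, against 4.27% of all tested genes. Nckap1, a WAVE subunit, was at 70.5 ± 3.86 FPKM in the high and 78.9 ± 1.58 FPKM in the low libraries (SD, n = 3 each), and Abi1, another subunit, at 21.6 ± 3.42 and 26.2 ± 1.75 FPKM. Both were separate, as were Abi2, Rac1 and Dab1, making 5 of 14 separate and lower, against 7.59% of all listed genes. The WAVE complex did not move as a whole. Its subunits Wasf3 and Brk1 were the 2 higher genes of the list, with log2 differences of 0.14 and 0.10. Cyfip1 and Cyfip2 were at −0.04 each, and Wasf1 was at −0.24 with overlap. Abi2, Rac1, Dab1, Wasf1, Wasf3, Brk1, Cyfip1 and Cyfip2 were named after their values were seen.

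The other lists stood nearer to 0. Catenins, which tie cadherins to actin, had 5 of 8 genes lower and a median of −0.03. Ctnna2, the neuronal alpha-catenin, was separate and higher at 18.9 ± 0.658 against 17.2 ± 0.620 FPKM (SD, n = 3 each), while Ctnnb1, the beta-catenin, was at 88.9 ± 5.68 and 96.6 ± 3.50 FPKM. Regulators of the clustered promoters had 8 of 12 genes lower and a median of −0.02. Ctcf, which loops enhancers to those promoters, was at 12.6 ± 1.08 and 14.1 ± 0.497 FPKM, and Wapl, which releases cohesin, at 4.12 ± 0.501 and 4.91 ± 0.391 FPKM.

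Proteases that cut cadherins had 6 of 7 genes lower and a median of −0.04. Psenen, a gamma-secretase subunit, was at 16.4 ± 2.06 and 19.0 ± 2.03 FPKM, and Adam10, the main sheddase of N-cadherin, at 11.8 ± 1.72 and 12.9 ± 1.01 FPKM. The wider cadherin superfamily and its modifiers had 6 of 12 tested genes lower. Celsr1, a planar polarity cadherin of ependymal cells, was below the filter and separate at 0.626 ± 0.0860 against 1.13 ± 0.102 FPKM (SD, n = 3 each), with a log2 difference of −0.39 (SE 0.0936, adjusted p 0.515 by limma) in the fit to all genes. Its direction was that of the ependymal marker sum, whose part in the Celsr1 value was not tested. Fjx1, related to the four-jointed kinase of flies, was at 10.7 ± 1.01 and 13.2 ± 1.03 FPKM.

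Separation of the 9 members depended on how libraries were scaled. After upper quartile scaling 5 of the 9 stayed separate, namely Pcdhb19, Pcdhga6, Pcdhga8, Pcdhgc5 and Pcdh17. Quantile normalization kept 8 of the 9, all but Pcdh8, and added Pcdhgb2 as higher. Removing a trend on GC content and transcript length kept 5 of the 9, namely Pcdhga6, Pcdhga8, Pcdhgc5, Pcdh17 and Pcdh8, and added Pcdhga3 as lower and Pcdh15 as higher. Pcdh17, Pcdhga6, Pcdhga8 and Pcdhgc5 were separate under each of these 3 scalings. Shares of separate genes over all genes were not computed under these scalings, so these counts have no background beside them. Across all tested genes the log2 difference followed GC content with a Spearman correlation of 0.40 (11924 genes), and across the 50 tested members with −0.02, both as descriptions of genes measured in the same libraries.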

How the data were processed

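Poly(A)-selected, strand-marked RNA libraries (3 high, 3 low) were analysed from the gene table as deposited. The authors deposited FPKM per gene and library, a log2 fold change and an unadjusted p-value. The submitters' processing notes name fastp, HISAT2, StringTie and GRCm38, without versions or roles. The sources used here do not say if counting used strand. The 12026 genes whose FPKM averaged 1 or more over the 6 libraries were tested, as log2(FPKM + 1), in R 4.3.3 by limma 3.58.1 with trended variance, 2-sided tests and Benjamini-Hochberg adjustment at 0.05, after the fit was tested on simulated data. Members below this filter have values from a fit of that model to the whole table. Single genes were compared with exact 2-sided permutation tests, whose smallest p is 0.1.

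Members and lists were chosen with earlier results of these data known. Named members are those with separate groups, the 3 highest in each subfamily, those with the smallest p in each direction, all of a subfamily of 5 or fewer, and the 2 with the smallest p in each partner list. Alternatives were other pseudocounts, filters and scalings, removal of a spline trend on GC content and length (11924 genes, 99.2% of those tested), a replicate block, array weights, and leaving out libraries. Same-numbered libraries did not deviate together, so the numbers were not treated as pairs. Depth is unknown beyond the estimate from FPKM steps. Gene positions and shared exons come from GENCODE vM21, and promoters from RefSeq.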

Additional observations from a re-analysis of the deposited data

How the results depend on the processing

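No gene passed an adjusted p of 0.05 under any of the 18 alternatives (limma, with 1009 genes at an unadjusted p under 0.05 as reported), so the counts below are descriptions. FPKM without counts, low levels of most clustered genes and 3 libraries a group limit what could be seen. The median log2 difference of clustered protocadherins was −0.15 with a pseudocount of 0.1 and −0.048 without a filter. It was −0.18 with a mean FPKM of at least 5, which only Pcdhgc5 and Pcdhgc3 reach, and −0.12 to −0.062 leaving out 1 library at a time. That of other protocadherins was −0.14 without a filter, −0.13 with array weights, −0.068 without low libraries 1 and 3, and −0.22 to −0.11 leaving out 1 library. That of cadherins was 0.018 with the GC and length trend removed, also with the replicate block, 0.030 without low libraries 1 and 3, and −0.051 to 0.0030 leaving out 1 library. The cause was not tested.

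Members at an unadjusted p under 0.05 numbered 12 with array weights, 2 without low libraries 1 and 3, 6 with the replicate block, and 3 to 12 leaving out 1 library. The replicate block left every log2 difference as it was, which the balanced design fixes in advance. No gene passed an adjusted p of 0.05 by limma with or without it, while members at an unadjusted p under 0.05 went from 7 to 6. Same-numbered libraries had correlations of −0.09, −0.21 and −0.16. Separate members numbered 5 with a mean FPKM of at least 5, where fewer members could count, and 5 with upper quartile scaling. They numbered 12 to 24 leaving out 1 library and 28 without low libraries 1 and 3, where fewer libraries make separation easier. Shares over all genes are not given for these settings either. The ratio of summed clustered FPKM was 0.853 for genes of at least 5 FPKM, which are Pcdhgc5 and Pcdhgc3 only, and 0.888 to 0.934 leaving out 1 library.

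Of 569 values of the 33 named members under alternatives, 545 kept their sign, and 24 values of 10 members changed sign. The replicate block alone, the other filters and the fit without a variance trend leave a gene's log2 difference unchanged, so no sign could change there. The count of kept signs includes those settings and is no measure of stability. Without low libraries 1 and 3, the log2 difference was −0.018 for Cdh15, 0.0076 for Cdh2, 0.20 for Cdh8, 0.014 for Pcdh10, −0.029 for Pcdh18, 0.0024 for Pcdha12, 0.017 for Pcdha5, 0.025 for Pcdhb17 and −0.038 for Pcdhb20. With the GC and length trend removed, with or without the block, Cdh8 was 0.081 and Pcdh10 0.052, and array weights gave Pcdh10 0.0075. Leaving out 1 library gave −0.080 to 0.0031 for Cdh2, −0.20 to 0.050 for Cdh22, −0.13 to 0.078 for Cdh8, −0.073 to 0.013 for Pcdh10, −0.0029 to 0.083 for Pcdh18, −0.10 to 0.019 for Pcdha5 and −0.071 to 0.070 for Pcdhb20.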
